A study of Mus musculus with 7 samples.

Results

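The septin genes Septin1 to Septin9 and Septin11 were followed in mouse embryonic stem cells in which Mettl3, the catalytic subunit of the m6A RNA methyltransferase, was knocked down. Members were the exon-array probe sets whose platform annotation names exactly 1 of these 10 genes, with the older names beginning Sept counted as the same gene. They held 175 of the 311384 probe sets with 1 gene symbol, and 163 of these lay above the median probe set and were kept. With at least 3 kept probe sets required, 9 of the 10 members were among the 16353 genes tested, and Septin5, with 2 probe sets of its own, was not. The family was taken up because Septin1 fell with knockdown, so the fall of Septin1 is described and not tested. The other members entered by family name alone and were tested in a fit over all genes.

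The cells were J-1 embryonic stem cells, a mouse line, infected with lentiviruses that carried short hairpin RNAs. Of the 7 samples, 3 carried a hairpin against luciferase, a gene that mouse cells lack, 2 carried Mettl3 hairpin 1 and 2 carried Mettl3 hairpin 2. All groups thus share the infection and differ in the hairpin, and both knockdown groups are compared with the same 3 control arrays. The labels give neither the promoter of the hairpins nor their target sites, and they do not say whether replicates were separate infections or cultures, so p-values measure only the spread between these samples.

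Values are log2 RMA expression values, and a gene value is the median of its kept probe sets on an array. Mettl3 lay between 10.14 and 10.46 with luciferase and between 8.66 and 8.97 with the hairpins. None of 10 embryonic stem cell markers passed the limma test described below, 1 had an unadjusted p below 0.05 (Dppa5a, at -0.27), the next largest difference was 0.14 (Zfp42), and their mean level was 12.05 to 12.17 with luciferase and 11.98 to 12.13 with knockdown. The second principal component held 21.4% of the variance. Hairpin 1 replicate 2 (-17.8) and luciferase replicate 3 (-10.4) lay at its low end. Luciferase replicate 2 (11.5) and hairpin 2 replicate 2 (10.1) lay at its high end. The 2 arrays at the low end were set apart, and values without both are given where they change a call. That setting leaves only 1 array of hairpin 1. Levels of different genes are not comparable on these arrays, and in bulk RNA fewer cells of a type and less RNA per cell cannot be told apart.

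Septins are GTP-binding cytoskeletal proteins that join end to end into rods, filaments and rings at the cell cortex, at the cleavage furrow and at the base of cilia. A rod is built from members of different subgroups, named after Septin2, Septin6, Septin7 and Septin3, and members of 1 subgroup can take one another's place. Of the 10 members, Septin1, Septin2, Septin4 and Septin5 belong to the Septin2 subgroup, and Septin6, Septin8 and Septin11 to the Septin6 subgroup. Septin3 and Septin9 belong to the Septin3 subgroup, while Septin7 stands alone. Septin10 and Septin14, described below, also belong to the Septin6 subgroup.

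The members did not move together. Septin1 was lower on every knockdown array, Septin6 and Septin8 rose, and the differences of the other 6 tested members did not pass the test. Outside Septin1, 2 of 8 tested members rose and none fell at a Benjamini-Hochberg adjusted p below 0.05 in limma, where 5.53% of all genes were called higher and 2.37% lower. At an unadjusted p below 0.05, 4 were higher and 1, Septin4, was lower. Shares over all genes or probe sets at an unadjusted p were not computed, so counts at that threshold have no background in this report. The median log2 change of these 8 members was 0.15, beside 0.00 over all genes tested. After arrays were centred on their median gene value, 696 genes were called higher and 703 lower, in place of 904 and 388, and the directions of Septin1, Septin6, Septin8, Septin9 and Septin11 did not turn.

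**Figure D1:**
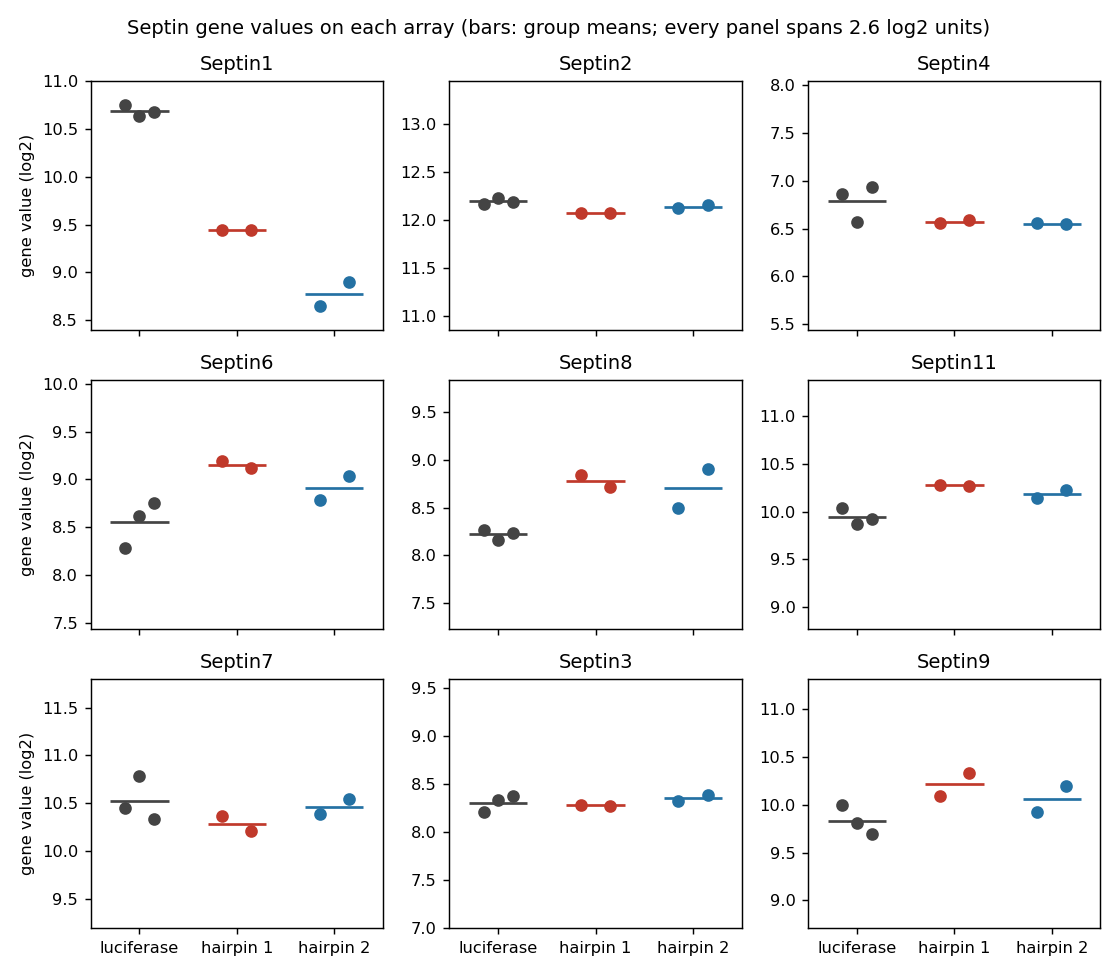
Gene values (log2, vertical axes) of the 9 tested septin genes on each array, with luciferase in grey, Mettl3 hairpin 1 in red and hairpin 2 in blue; points are arrays, bars are group means and every panel covers the same span of log2 units. Septin1 falls from luciferase to hairpin 1 to hairpin 2 with no overlap, and the knockdown points of Septin6, Septin8 and Septin11 lie above those of luciferase.

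Septin1 is a member of the Septin2 subgroup known mainly from lymphoid cells. Its gene value was 10.75, 10.63 and 10.68 on the 3 luciferase arrays. It was 9.45 and 9.44 with hairpin 1, and 8.65 and 8.90 with hairpin 2. The 3 groups did not overlap, and both hairpin 2 arrays lay below both hairpin 1 arrays. The log2 change was -1.24 with hairpin 1, a 2.37-fold lower value, and -1.91 with hairpin 2, a 3.76-fold lower value. Over both hairpins it was -1.58, with a standard error of 0.09, and ranged from -1.64 to -1.37 over 19 alternative settings. Among the 16353 genes tested this was the lowest change over both hairpins and with hairpin 2, and the 5th lowest with hairpin 1, which is how the gene came to be chosen.

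The fall of Septin1 was seen at nearly all of its probe sets, though not by the same amount. Where they lie along the gene was not analysed here. All 13 of its probe sets were kept, and 12 of them were lower with knockdown, with changes of -0.75 to -1.97 on the log2 scale, each with all 4 knockdown arrays below all 3 luciferase arrays. Over all kept probe sets 5.98% lay wholly below luciferase, a share given only as background, since the same contrast chose the gene. The brightest probe set had means of 11.88 with luciferase, 10.50 with hairpin 1 and 9.77 with hairpin 2. The exception was the dimmest probe set, at 6.52, 7.15 and 6.62 in the same order, where the difference of both hairpins from luciferase was 0.36.

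**Figure D2:**
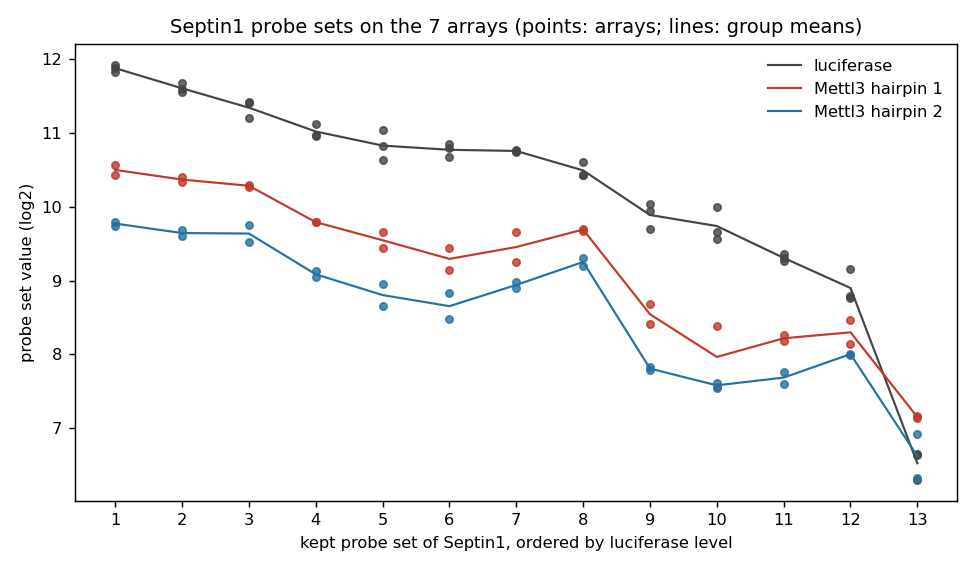
Log2 values of the 13 Septin1 probe sets (horizontal axis, ordered from the highest to the lowest luciferase mean) on each array; points are arrays and lines join group means. From the first to the twelfth probe set the order is luciferase, hairpin 1, hairpin 2, and at the last one hairpin 1 lies highest.

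The difference between the hairpins in Septin1 is given as a description only, because the hairpin 2 values helped to choose the gene. Septin1 was higher with hairpin 1 than with hairpin 2 by 0.67 on the log2 scale (standard error 0.11), and the mean was higher at 13 of 13 probe sets. Mettl3 itself differed by 0.14 between the same arrays (95% interval -0.17 to 0.44, adjusted p 0.843). In this comparison limma called 0.104% of genes and no tested septin, Septin1 included. Among the 8 other tested members the smallest p was 0.141 before and 0.707 after adjustment, of Septin6.

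Lymphocyte markers were examined because Septin1 is best known from those cells. Among them 6 were tested and none passed in limma, 1 having an unadjusted p below 0.05. Lck did not reach the filter, and the mean level of the 6 was 7.55 to 7.67 with luciferase and 7.52 to 7.60 with knockdown. The largest differences were those of the integrin gene Itgal, at -0.24 (adjusted p 0.102), and the actin regulator Coro1a, at 0.10 (adjusted p 0.466), and Ptprc, the leukocyte common antigen, differed by -0.07 (adjusted p 0.616). Of 6 tested male germ cell markers 2 fell and none rose in limma, beside 2.37% of all genes called lower. At an unadjusted p below 0.05, 3 were lower and 0 higher. Those that fell were Dazl, with a log2 change of -0.88 (adjusted p 0.000413), and Mael, at -0.94 (adjusted p 0.00207), both factors of germ line RNA regulation. Over both hairpins the list did not move as a whole. Positive differences were those of 3 of the 6, Sycp3 (0.33), Prm1 (0.21) and Ddx4 (0.06), and the list's median was -0.10. With hairpin 1 and hairpin 2 in turn, Ddx4 differed by -0.32 and 0.45, Sycp3 by -0.00074 and 0.65, and Prm1 by 0.12 and 0.30. None of these passed. The mean level of that list was 8.43 to 8.64 with luciferase and 7.93 to 8.50 with knockdown, and its part in the Septin1 values was not tested.

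The genes beside Septin1 on chromosome 7, as ordered in RefSeq GRCm38.p6, were compared with it. Of the 10 nearest tested protein-coding genes, 5 on either side, 1 fell and none rose in limma, which called 2.37% of all genes lower. At an unadjusted p below 0.05, 3 were lower and 1 higher. Itgal of the lymphocyte list is one of these neighbours. The neighbour that fell was Mylpf, a fast skeletal muscle myosin light chain, whose RefSeq gene model overlaps that of Septin1. Mylpf differed by -0.32 (adjusted p 0.0398), and the call was lost when any 1 of the 7 arrays was left out (adjusted p 0.0707 to 0.139). The next genes, Tbc1d10b before and Zfp553 after Septin1, differed by 0.00 and 0.04.

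Septin2, the founding member of its subgroup and a core part of septin rods, was 12.17, 12.23 and 12.19 with luciferase, 12.07 and 12.08 with hairpin 1, and 12.12 and 12.15 with hairpin 2. All 4 knockdown arrays lay below luciferase, as for 8.40% of all genes, but the log2 change was -0.09 (95% interval -0.25 to 0.07) and did not pass (adjusted p 0.487). Of its 12 probe sets, 9 were lower and 3 higher, beside 53.7% of all kept probe sets higher, with a median change of -0.03.

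Septin4, whose ARTS isoform promotes apoptosis and which is needed for the annulus of sperm, was a dim gene with 14 of 22 probe sets kept. It was 6.86, 6.57 and 6.94 with luciferase, 6.56 and 6.59 with hairpin 1, and 6.56 and 6.55 with hairpin 2, so that luciferase replicate 2 overlapped the knockdown arrays. The log2 change of -0.23 (95% interval -0.45 to -0.01) did not pass over all genes (adjusted p 0.187). Among 8 tested partners of ARTS in apoptosis 2 rose, beside 5.53% of all genes. They were the survival factor Bcl2, by 0.53 (adjusted p 0.00379), and the inhibitor of apoptosis Birc3, by 0.51 (adjusted p 0.0228). The call of Bcl2 stayed when single arrays were left out and was lost without the filter on dim probe sets (0.38, adjusted p 0.0974), and with median polish its change was 0.28 (adjusted p 0.0232). The call of Birc3 was lost without luciferase replicate 1 or 3, hairpin 1 replicate 1 or hairpin 2 replicate 2 (adjusted p 0.0616 to 0.0881), and with either other filter on dim probe sets (0.123 with none and 0.0718 with a stricter one).

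Septin5, known from neurons and from vesicle release, could be read only in part. Its 2 own probe sets changed by -0.30 and -0.27. Another 11 probe sets are annotated to both Septin5 and Gp1bb, the next gene along the chromosome, and cannot be assigned to either. Of the 7 kept among them 5 were lower and 2 higher, with a median change of -0.19. When genes with a single kept probe set were admitted, the change of Septin5 was -0.28 (95% interval -0.53 to -0.04, adjusted p 0.181).

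The 3 followed members of the Septin6 subgroup lay higher on every knockdown array than on any luciferase array, as did 13.4% of all genes. Of these 3, 2 passed the test. Septin10 and Septin14 of the same subgroup, described below, had negative differences (-0.13 and -0.49). Septin8, which is found with synaptic vesicle proteins, was 8.26, 8.16 and 8.23 with luciferase. It was 8.84 and 8.72 with hairpin 1, and 8.50 and 8.90 with hairpin 2. The groups did not overlap, and the smallest step was from luciferase replicate 1 to hairpin 2 replicate 1. Septin8 rose by 0.52, or 1.43-fold (standard error 0.10, limma adjusted p 0.0145). With hairpin 1 alone, where 3.97% of genes were called higher, the change was 0.56 (adjusted p 0.0283), and with hairpin 2 alone, where 2.71% were, it was 0.48 (adjusted p 0.0655). The call was lost without luciferase replicate 2 (adjusted p 0.05001), without hairpin 1 replicate 1 (0.0505) and without both arrays of the second component (0.0670), while the change lay between 0.42 and 0.62 over all 19 alternatives.

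Septin8 also showed the clearest unevenness between probe sets among the members other than Septin1. Of its 15 kept probe sets 13 were higher with knockdown, beside 53.7% of all kept probe sets, and 11 lay wholly above luciferase, beside 12.0%. Singly, 4 passed the test, beside 1.61% of all kept probe sets called higher, with changes of 0.57, 0.66, 0.86 and 0.90. The brightest probe set, at means of 10.31 with luciferase, 10.22 with hairpin 1 and 10.20 with hairpin 2, differed by -0.10, and the other lower one by -0.15. The limma test of unequal change within a gene gave an adjusted p of 0.000327 for Septin8, in a test that called 4.97% of genes. Which exons these probe sets lie in was not analysed here.

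**Figure D3:**
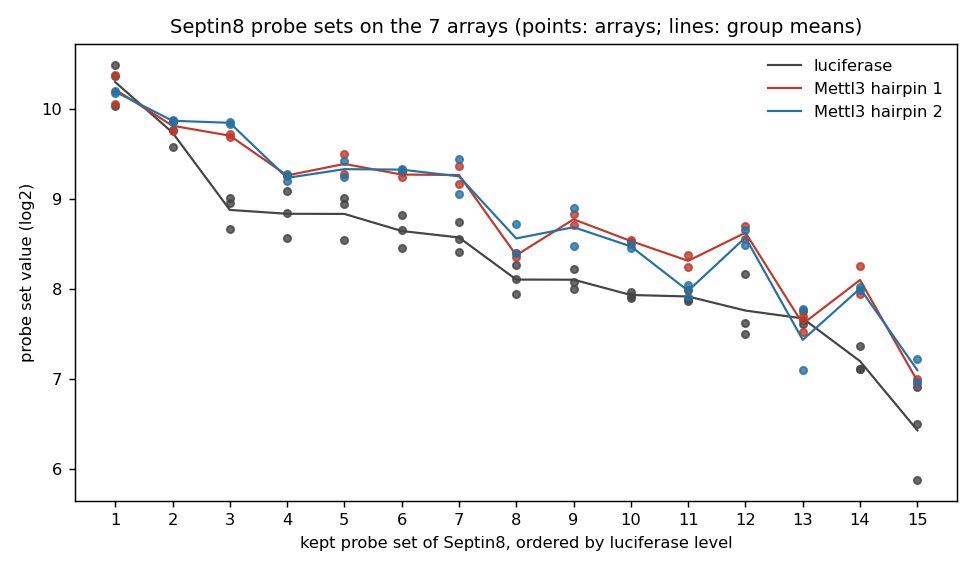
Log2 values of the 15 kept Septin8 probe sets (horizontal axis, ordered from the highest to the lowest luciferase mean) on each array; points are arrays and lines join group means. Both hairpins lie above luciferase at most probe sets, and the groups overlap at the first, second, eleventh and thirteenth.

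Septin6, an X-linked member common in blood cells, was 8.28, 8.62 and 8.76 with luciferase, 9.19 and 9.12 with hairpin 1, and 8.78 and 9.03 with hairpin 2. The luciferase arrays spread over more than those of Septin8, and luciferase replicate 3 nearly reached hairpin 2 replicate 1. Septin6 rose by 0.48 over both hairpins, or 1.39-fold (standard error 0.12, limma adjusted p 0.0381). The change was 0.60 with hairpin 1 (adjusted p 0.0372) and 0.35 with hairpin 2 (adjusted p 0.215). Of 17 kept probe sets 16 were higher, beside 53.7% of all kept probe sets, and 11 lay wholly above luciferase, beside 12.0%. None passed singly, 11 having an unadjusted p below 0.05. The median of their own changes was 0.32, well below the change of the gene value. The call was lost without luciferase replicate 1 (adjusted p 0.129) or 2 (0.0685), either hairpin 1 array (0.0986 and 0.0680) or hairpin 2 replicate 2 (0.132). It was also lost without both arrays of the second component (0.0567), after quantile normalization (0.0803) and after centring (0.0716). Nor did it stay with at least 1 kept probe set per gene or in a fit of only the groups compared, and it held in 8 alternatives. With hairpin 1 alone, the calls of Septin6 and Septin8 were lost without luciferase replicate 1 or 2 or either hairpin 1 array, and that of Septin8 also without luciferase replicate 3 (adjusted p 0.0623 to 0.170).

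Septin11, a close relative of Septin6 and Septin8 that takes the same place in the rod, was 10.04, 9.87 and 9.92 with luciferase, 10.27 and 10.27 with hairpin 1, and 10.14 and 10.23 with hairpin 2. The log2 change of 0.29 (95% interval 0.11 to 0.46) missed the threshold (adjusted p 0.0541). Of its 28 probe sets 27 were higher, beside 53.7% of all kept probe sets, and 10 lay wholly above luciferase, beside 12.0%. None passed singly, 3 having an unadjusted p below 0.05, and the median of their changes was 0.14. With trended, robust variances Septin11 passed (adjusted p 0.0214).

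**Figure D4:**
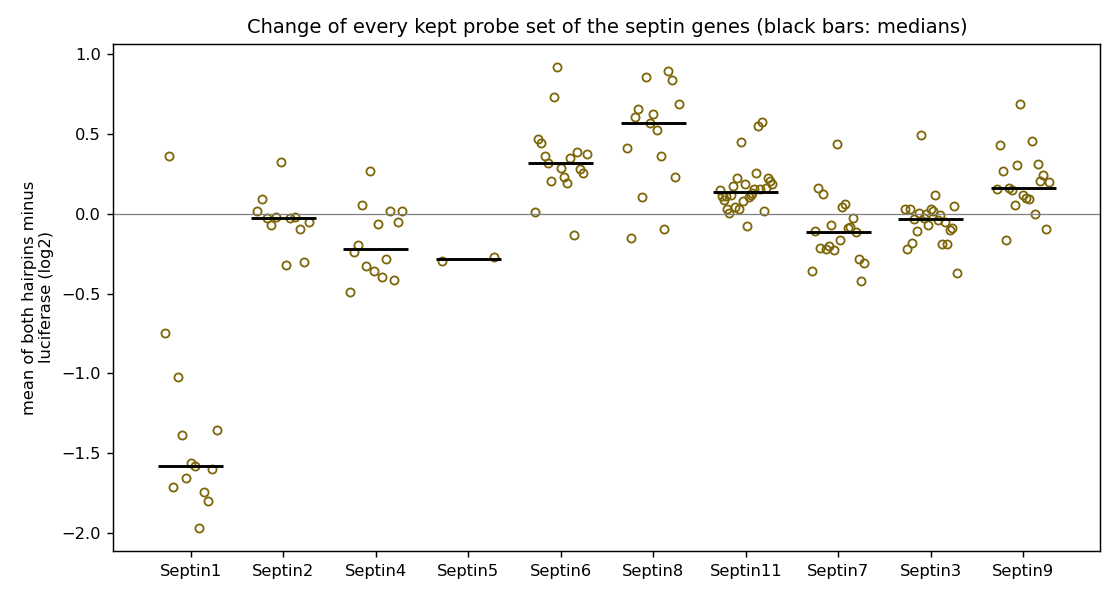
Difference of both hairpins from luciferase (log2, vertical axis) at every kept probe set of the 10 septin genes, grouped by subgroup along the horizontal axis; each circle is a probe set and black bars are medians. Septin1 has 12 of 13 circles far below 0, and Septin6, Septin8 and Septin11 have 16 of 17, 13 of 15 and 27 of 28 above 0, beside 53.7% of all kept probe sets.

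Promoter windows in the RefSeq table of GRCm38.p6 matched 6 of the 10 members. The 250 bases before the first listed start of Septin8 and before the start of Septin11 are shown because both genes lay higher on every knockdown array, with CG pairs in capitals. They lie on the plus strand at chr11:53519486-53519735 and chr5:93093166-93093415.
Septin8: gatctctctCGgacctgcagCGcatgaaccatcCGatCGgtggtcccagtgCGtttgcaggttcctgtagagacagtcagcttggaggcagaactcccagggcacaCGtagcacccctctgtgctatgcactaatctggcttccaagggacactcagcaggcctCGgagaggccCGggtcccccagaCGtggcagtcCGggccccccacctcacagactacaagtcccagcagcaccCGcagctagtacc
Septin11: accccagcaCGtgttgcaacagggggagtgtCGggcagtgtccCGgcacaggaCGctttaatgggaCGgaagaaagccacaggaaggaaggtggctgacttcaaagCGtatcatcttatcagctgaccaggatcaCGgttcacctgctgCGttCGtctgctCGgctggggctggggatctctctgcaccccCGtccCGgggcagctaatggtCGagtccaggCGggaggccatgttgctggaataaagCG
Neither window holds CCAAT, the GC box GGGCGG or TATAAA on either strand, motifs that 33.8%, 32.7% and 12.4% of all 32851 windows of this length hold. The Septin8 window has 11 CG pairs and the Septin11 window 15, beside a median of 6 over all windows. The table lists a second, later start of Septin8, and the 250 bases before it, at chr11:53519938-53520187, hold 2 GC boxes and 36 CG pairs, more than in 97.4% of windows. These counts describe the letters only.

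Septin7, the subunit shared by nearly all septin rods, was 10.45, 10.79 and 10.34 with luciferase, 10.36 and 10.21 with hairpin 1, and 10.38 and 10.54 with hairpin 2. The groups overlapped, and the log2 change of -0.15 (95% interval -0.41 to 0.10) did not pass (adjusted p 0.443). Of its 20 probe sets 15 were lower and 5 higher, beside 53.7% of all kept probe sets higher, with a median change of -0.11.

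Septin9, which is a part of longer rods and binds actin and microtubules, was 9.99, 9.81 and 9.69 with luciferase, 10.09 and 10.33 with hairpin 1, and 9.92 and 10.20 with hairpin 2. Luciferase replicate 1 overlapped hairpin 2 replicate 1. The log2 change of 0.31 (95% interval 0.06 to 0.55) did not pass (adjusted p 0.121), though with the mean of probe sets in place of the median it was 0.20 and passed (adjusted p 0.0426). Of 19 probe sets 16 were higher, beside 53.7% of all kept probe sets, with a median change of 0.17 and a range from -0.16 to 0.69. The test of unequal change within the gene passed (adjusted p 0.0318) and was lost without luciferase replicate 1 or 3, hairpin 1 replicate 1 or either hairpin 2 array (adjusted p 0.0770 to 0.530) and with a stricter filter on dim probe sets (0.549).

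Septin3, a neuronal member of the same subgroup, was 8.21, 8.33 and 8.37 with luciferase, 8.28 and 8.28 with hairpin 1, and 8.32 and 8.38 with hairpin 2. The change of 0.01 (95% interval -0.16 to 0.18, adjusted p 0.950) took the other sign after quantile normalization (-0.05) and after centring (-0.05).

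**Figure D5:**
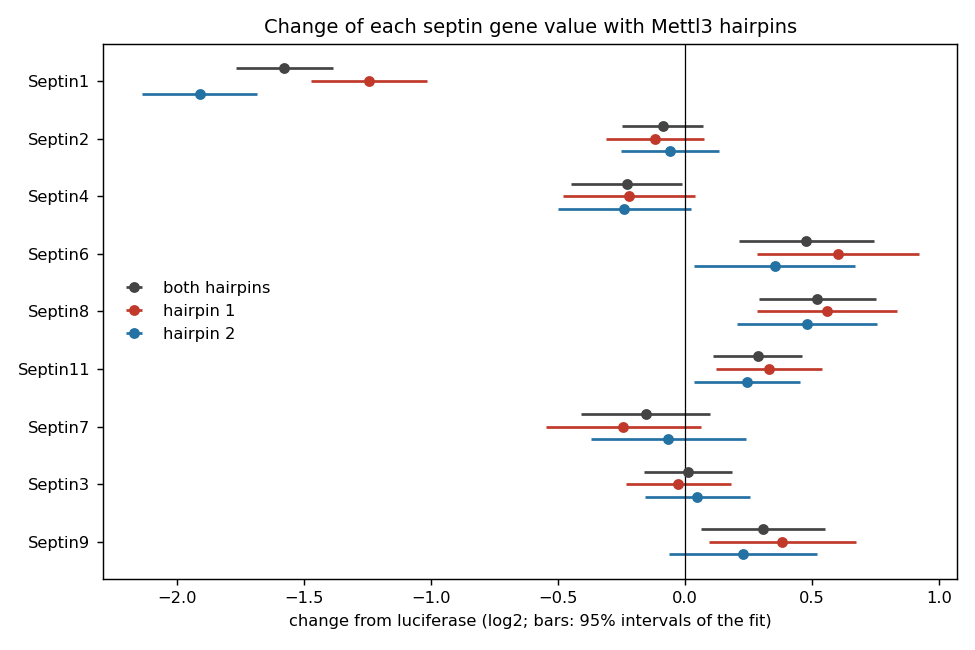
Change from luciferase (log2, horizontal axis) of the 9 tested septin gene values for both hairpins (grey), hairpin 1 (red) and hairpin 2 (blue); points are estimates and bars 95% intervals of the limma fit. The Septin1 intervals for hairpin 1 and hairpin 2 lie apart. This is a description only, since the hairpin 2 values helped to choose the gene, and the fit did not call the difference. For every other gene the hairpin 1 and hairpin 2 intervals overlap.

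Neuronal and fibroblast markers were set beside the rise of Septin6 and Septin8. Of 7 tested neuronal markers 2 rose, beside 5.53% of all genes. They were the dendritic microtubule protein Map2, by 0.77 (adjusted p 0.00187), and the synaptic fusion protein Snap25, by 0.70 (adjusted p 0.00496). The list's mean level was 8.11 to 8.18 with luciferase and 8.35 to 8.46 with knockdown. Snap25 did not pass with a stricter filter on dim probe sets, where its change was 0.24 (adjusted p 0.162), or with none (0.90, adjusted p 0.0699). Stmn2, a regulator of microtubules in growing axons, differed by -0.25 (adjusted p 0.145), Tubb3 by 0.29 (adjusted p 0.0606), and Rbfox3 did not reach the filter. Among fibroblast markers 2 of 9 tested rose, beside 5.53% of all genes, while Lum did not reach the filter. Those that rose were the smooth muscle actin Acta2, by 1.07 (adjusted p 0.000482), and its companion Tagln, by 0.78 (adjusted p 0.000865). With hairpin 1 alone Tagln rose by 1.19 (adjusted p 0.000361), and with hairpin 2 alone it differed by 0.36 (adjusted p 0.0851). Tagln did not pass without the filter on dim probe sets (adjusted p 0.0721) or in a fit of only the groups compared (0.0526). The differences of the other 7 were all negative and none passed, among them Col1a2 (-0.18, adjusted p 0.195), Pdgfrb (-0.19, adjusted p 0.241) and Col1a1 (-0.11, adjusted p 0.428), and the median of the 9 was -0.13. The mean level of that list was 7.27 to 7.32 with luciferase and 7.22 to 7.54 with knockdown. The part of either list in the septin values was not tested.

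The transcripts of proteins that septins work with changed in few cases. CDC42, a small GTPase, steers septins through the Borg proteins. Of 5 tested genes of this group 1 rose, beside 5.53% of all genes. It was the Borg gene Cdc42ep2, by 0.37 (adjusted p 0.0419). That call was lost when any array other than luciferase replicate 2 was left out (adjusted p 0.0570 to 0.125), and its sign turned with a stricter filter on dim probe sets (-0.09). Of 19 tested genes of the cytokinetic ring and midbody, where septins scaffold myosin and anillin, 1 rose, close to the 5.53% of all genes called higher, so the count sets nothing apart in this list. It was the myosin light chain Myl9, which rose by 0.51 (adjusted p 0.0107). With hairpin 1 alone Myl9 differed by 0.28 (adjusted p 0.173) and with hairpin 2 by 0.73 (adjusted p 0.00913), and the call over both was lost without luciferase replicate 1 (adjusted p 0.0520), without the filter on dim probe sets (0.0502) and in a fit of only the groups compared (0.0541). The median change of the 19 genes was 0.00.

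The exocyst, a vesicle-tethering complex that septins bind, had 2 of 9 subunit genes higher, beside 5.53% of all genes called higher. Exoc4 rose by 0.47 (adjusted p 0.0110) and Exoc6b by 0.43 (adjusted p 0.0102). The 4 knockdown arrays of Exoc6b lay between 10.64 and 10.90 and its luciferase arrays between 10.27 and 10.36. Exoc4 did not overlap between the groups either, and 13.4% of all genes lay wholly above luciferase. Exoc6b passed with hairpin 1 alone (0.50, adjusted p 0.0149) but not with hairpin 2 alone (0.36, adjusted p 0.0711). Exoc4 lost its call without luciferase replicate 1 (adjusted p 0.0595) and without the filter on dim probe sets (0.0511), and Exoc6b kept it under every alternative run. The median of all 9 was -0.04.

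The other septin symbols on the array did not pass over both hairpins. Septin10 differed by -0.13 (adjusted p 0.547), Septin12 by -0.17 (adjusted p 0.402) and Septin14, with 3 of 12 probe sets kept, by -0.49 (adjusted p 0.0709). Septin14 passed without luciferase replicate 3, at -0.63 (adjusted p 0.0354), with the mean of probe sets, at -0.42 (0.00340), and with trended, robust variances (0.0469), and without luciferase replicate 2 its difference was -0.29 (adjusted p 0.134). Septin14 was lower with hairpin 1 alone, by a log2 change of -0.69 (adjusted p 0.0467), and its difference with hairpin 2 was -0.29 (adjusted p 0.413). Septin10 and Septin14, unlike Septin6, Septin8 and Septin11 of the same subgroup, had negative differences.

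The genes whose pattern over the 7 arrays lay nearest to that of Septin1 were sought among 336 genes that spanned at least 1 log2 unit. The arrays share the groups, so the correlations describe these libraries and carry no test. Predicted genes, with symbols of Gm and a number or ending in Rik, were skipped in naming. Among the others Gpa33, a surface antigen of gut epithelium, followed Septin1 most closely (Pearson r 0.989). It was 10.22, 10.16 and 10.22 on the luciferase arrays, 9.52 and 9.46 with hairpin 1, and 8.71 and 8.96 with hairpin 2. The order of the groups was that of Septin1, with no overlap. Dusp27, named after the dual specificity phosphatase family, and Trap1a, a tumour rejection antigen, came next (r 0.984 for both).

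The mirror pattern, lowest with luciferase and highest with hairpin 2, was shown by Glod5, a glyoxalase-domain gene, by Klhl13, an adaptor of a CUL3 ubiquitin ligase, and by the LIM-domain gene Fhl1 (r -0.991, -0.982 and -0.978). Glod5 was 8.21, 8.22 and 8.18 with luciferase, 9.19 and 9.04 with hairpin 1, and 9.47 and 9.48 with hairpin 2. The change of Klhl13 was 1.04 over both hairpins and 0.11 without the filter on dim probe sets.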

How the data were processed

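RNA of 7 J-1 embryonic stem cell samples was hybridised to mouse exon arrays, 1 array per sample. The authors deposited log2 values for 1201338 probe sets, and the submitters' processing notes list R (2.11.1) and RMA. Because RMA forces 1 distribution on the arrays, it hides any change shared by most transcripts. How probe sets were defined or filtered, and the build of the annotation, is not given in the sources used here, and scan batches were not examined. Array medians were 6.03 to 6.07, and precision is limited by how few arrays there are.

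Symbols came from the platform annotation, updated through RefSeq GRCm38.p6 for 45560 probe sets. Of all probe sets, 6385 had several symbols and 883569 none, and these were left out. Probe sets with a mean above 6.02, the median of all, were kept, and at least 3 of them were summarised by their median on each array, without further normalization. The limma package (3.58.1, R 4.3.3) fitted 1 mean per group by lmFit and eBayes with 4 residual degrees of freedom; p-values were adjusted by Benjamini-Hochberg over all genes and called below 0.05. Unequal change within genes was tested with diffSplice. The scripts were tested on simulated data. Named genes are Mettl3, the septins, up to 4 called members of each list or the 2 largest differences of a list with none, the neighbours of Septin1, and the 3 genes nearest to it in either direction. Predicted genes were skipped in naming those nearest to Septin1. Other markers were named after their values were seen. The members, lists and rules were chosen with earlier results of these data known.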

Additional observations from a re-analysis of the deposited data

How the results depend on the processing

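With the replicate number as a block, 540 genes were called over both hairpins, 460 with hairpin 1, 208 with hairpin 2 and 3 between hairpins, with 1 septin other than Septin1, 261 genes of unequal exon change and 0 single probe sets; Septin8 then had an adjusted p of 0.0617, and the exon test of Septin8 0.0582, Exoc4 (0.0617) and Birc3 (0.113) lost their calls, and Septin14 passed at -0.63 (0.0239). Replicate 3 exists only for luciferase, so the block takes up that array. Its log2 changes equal those without luciferase replicate 3, as for Septin14 (-0.63), so these settings are not separate checks of a change. Same-numbered arrays correlated at -0.262 to 0.083 in their deviations, so the numbers are not shown to pair samples, and a block with the hairpin numbers crossed called 0 genes between hairpins. Without the filter on dim probe sets 484, 320, 92 and 0 genes were called in the 4 comparisons, and 805 single probe sets. The stricter filter called 1503 genes with hairpin 1, 1073 with hairpin 2, 34 between hairpins and 8989 single probe sets. The mean of probe sets called 2840, 2259, 1626 and 79 genes, and median polish 2469, 2072, 1439 and 76. With at least 1 probe set 639, 332 and 1 genes were called with hairpin 1, with hairpin 2 and between hairpins. Trended, robust variances called 29 between hairpins, and fits of only the groups compared called 2. Of the septins other than Septin1, 1 was called with at least 1 probe set, after quantile normalization, after centring and in fits of only the groups compared, and 0 without both arrays set apart on the second component, a setting added after the data were seen, which called 705, 266 and 317 genes. The causes were not tested. Leaving out single arrays gave 605 to 1098 genes over both hairpins (605 without hairpin 2 replicate 2, 638 without luciferase replicate 1), 271 to 729 with hairpin 1, 63 to 577 with hairpin 2, 0 to 4 between hairpins, 0 to 2 septins, 281 to 944 genes of unequal exon change and 193 to 1356 single probe sets. The difference of Septin3 from luciferase changed sign over both hairpins with the stricter filter (-0.0093), mean (-0.038), median polish (-0.028), quantile normalization (-0.048), centring (-0.046), each probe set's own change (-0.031) and without luciferase replicate 1 or hairpin 2 replicate 2 (-0.036 to 0.045 over single arrays left out). With hairpin 2 it did so with the mean (-0.0018), quantile normalization (-0.018) and centring (-0.015), and with hairpin 1 with the block (0.0079), without luciferase replicate 3 (-0.073 to 0.0079) and without both arrays (0.010). Septin7 with hairpin 2 lay between -0.16 and 0.065 with single arrays left out, and Cdc42ep2 turned to -0.086 with the stricter filter.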

Other observations

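The RefSeq table placed 4 of the 6 genes named as nearest in pattern to Septin1, in either direction and with predicted genes skipped, on the X chromosome. These were Trap1a, which fell with Septin1, and Glod5, Klhl13 and Fhl1, which rose. Septin6 lies on the same chromosome, while Septin1 lies on chromosome 7. Among the genes ranked for likeness that have a chromosome in the table, 26 of 281, or 9.25%, lie on the X chromosome, beside 500 of 15378, or 3.25%, of the genes tested. This was seen after the genes had been ranked and carries no test.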
